A study of Mus musculus with 6 samples.

Results

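The ELAVL, CELF and MBNL genes encode RNA-binding proteins of the nervous system and muscle. The 10 genes described here, *Elavl1*, *Elavl2*, *Elavl3*, *Elavl4*, *Celf1*, *Celf2*, *Celf4*, *Celf5*, *Mbnl1* and *Mbnl2*, were found by their symbol in a table of 59484 features from the mouse cerebral cortex at embryonic day 18.5 (E18.5). All 10 were listed once and passed the filter of a mean of at least 10 normalized counts, as did 18970 features in all. Wild-type C57BL/6 cortex (3 libraries) was set against cortex of Sam68:Slm2 double knockout embryos (dKO, 3 libraries). Both deletions are constitutive, so every cell of a dKO embryo carried them, and the dKO embryos came from intercrosses of Sam68+/-:Slm2-/- mice. That cross yields no wild-type embryos, so the wild-type embryos came from other litters and mothers. A difference by genotype cannot be told apart here from one by litter or mother. Sam68 and SLM2 are RNA-binding proteins of the STAR family that act in splicing, and the comparison asks whether the genes of other splicing regulators differed in level between dKO and wild-type cortex.

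ELAVL proteins, also called Hu proteins, bind U-rich and AU-rich stretches of RNA, stabilise mRNAs and change their splicing and polyadenylation. *Elavl1* (HuR) is expressed in nearly all cells, whereas *Elavl2* (HuB), *Elavl3* (HuC) and *Elavl4* (HuD) mark neurons. CELF proteins bind GU-rich RNA and act in splicing, translation and mRNA decay, and MBNL (muscleblind-like) proteins bind short GC-containing motifs flanked by pyrimidines through zinc fingers. CELF and MBNL proteins act on many of the same exons, often in opposite directions, and MBNL proteins rise during maturation and promote the adult form of many transcripts.

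Members of a family resemble each other in sequence, so a count could in principle mix paralogs. The coding stretch below holds the longest run of bases that any pair of the 4 ELAVL genes shares, 29 bases between *Elavl3* and *Elavl4*, and is shown for that reason. It encodes the conserved core of the last RNA recognition motif, and capitals mark bases that differ from *Elavl3*. The sequences are from GENCODE release M21 transcripts (mm10), all on the minus strand and each within 1 coding exon, at chr8:4289678-4289737 (*Elavl1*), chr4:91253321-91253380 (*Elavl2*), chr9:22018584-22018643 (*Elavl3*) and chr4:110206413-110206472 (*Elavl4*).
Elavl1: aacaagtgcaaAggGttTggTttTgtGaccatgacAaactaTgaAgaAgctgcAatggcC
Elavl2: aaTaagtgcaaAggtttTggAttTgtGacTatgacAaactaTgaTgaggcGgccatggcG
Elavl3: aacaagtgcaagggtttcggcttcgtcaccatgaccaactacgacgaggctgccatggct
Elavl4: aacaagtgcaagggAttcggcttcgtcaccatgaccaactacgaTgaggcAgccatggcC

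Over these 60 bases *Elavl4* differs from *Elavl3* at 4 positions, and *Elavl1* and *Elavl2* each differ at 12. No stretch of 150 bases, the length of a read, occurs in the transcripts of more than 1 of the 13 genes of the families, which are the 10 members plus *Celf3*, *Celf6* and *Mbnl3*. The longest runs shared within the CELF family were 43 bases between *Celf4* and *Celf6* and 31 between *Celf5* and *Celf6*. Between members, the longest were 29 bases in the ELAVL family, 26 in the CELF family (*Celf4* and *Celf5*) and 26 in the MBNL family. Sharing at the length of a read was found with overlapping genes of other names. It covered 6.15% of the 150-base words of *Celf2* (with *Gm26565*), 5.82% of *Celf5* (with *Gm16105*), 1.52% of *Elavl3* (with *Gm49318*) and 0.312% of *Elavl1* (with *Ccl25*).

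The libraries held between 31837922 and 40896541 reads on the listed features, and each member had between 160 and 10492 reads in a library. Normalized counts are reads divided by a size factor of the library. The label check showed *Khdrbs1*, which encodes Sam68, at 8213 ± 232 normalized counts (wild-type) and 152 ± 41.5 (dKO; SD, n = 3 each), *Khdrbs3*, which encodes SLM2, at 13841 ± 1252 and 6652 ± 366, and their paralog *Khdrbs2* at 1373 ± 207 and 7228 ± 631. *Khdrbs3* thus kept 0.481 of its wild-type count. The values count whole genes, so reads from the deleted part were not separated from the rest. The libraries numbered 1 stood apart from the others of both genotypes in how their counts ran with gene length. Across 13974 features, the Spearman correlation between exon length and a library's deviation from the mean of the 6 was 0.219 in wild-type 1 and 0.312 in dKO 1, and lay between -0.224 and -0.102 in the other 4. Wild-type 1 was the highest wild-type library for 7 of the 10 members, and dKO 1 the highest dKO library for 8. The labels do not say whether each library came from a separate embryo, so the p-values measure the spread between libraries, which may in part be technical.

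No member passed the test between the genotypes. By limma on log2(normalized count + 1), 0 of 10 members had an adjusted p under 0.05, where 0.1% of all features tested had one. An unadjusted p under 0.05 was found for 2 of 10, against 11.5% of all features. One was higher in dKO (*Celf1*; background 4.92%) and the other lower (*Celf4*; background 6.58%). The edgeR and DESeq2 fits of the recovered reads also called 0 members. The genotypes overlapped in all 10, and they did not overlap for 16.4% of all features. A list of 10 genes is too short to set a count of 0 apart from that share. The log2 fold changes (dKO over wild-type) were positive for 7 members and negative for 3, with a median of 0.08 beside 0.0036 over all features. Their median size without the sign was 0.12 on the log2 scale, beside 0.15 over all features. The 95% confidence intervals of the 10 members lay between 0.628-fold and 1.47-fold, and 8 of 10 included a fold of 1.

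**Figure D1:**
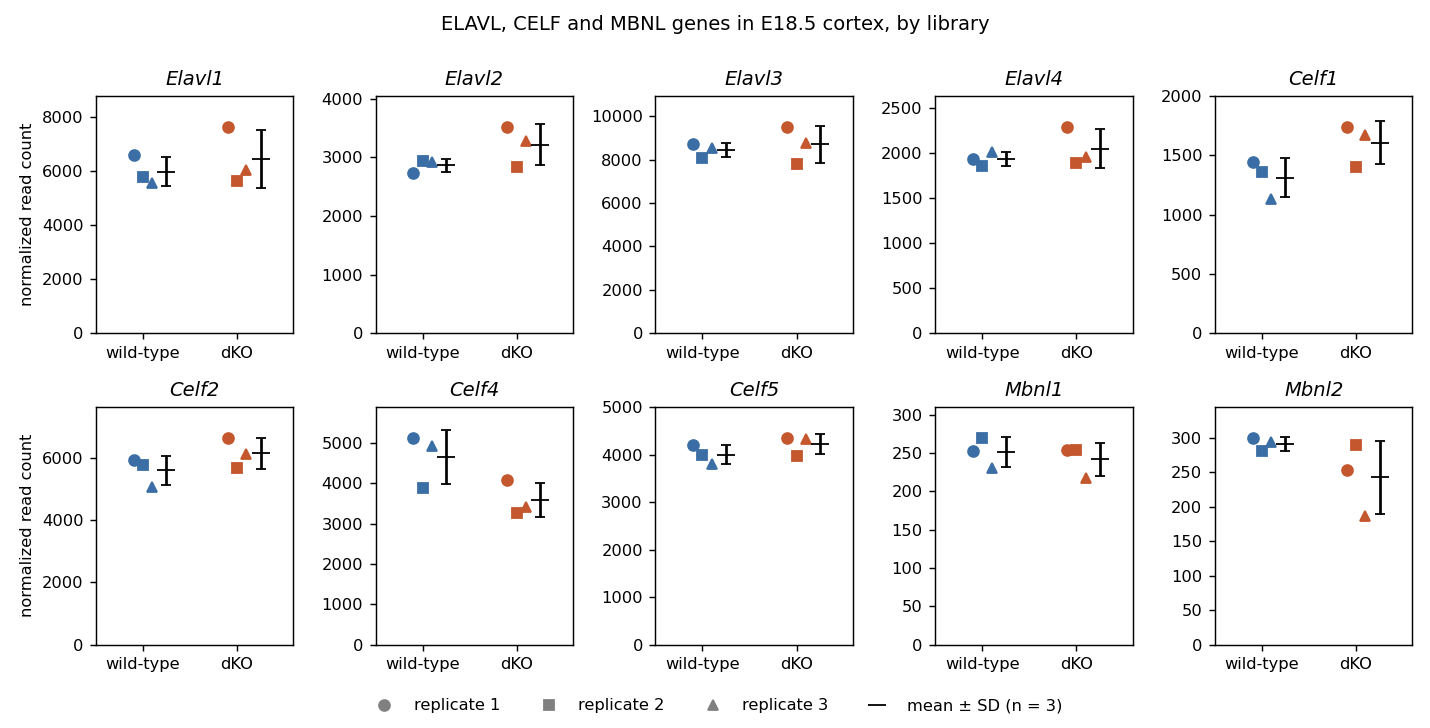
Normalized read counts (y axis, from 0) of the 10 genes in each library, with the mean and SD of 3 wild-type and 3 dKO libraries beside the points. The genotypes overlap in every panel, and the dKO library numbered 1 is the highest of its genotype for 8 of 10 genes.

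*Elavl1* (GSMG0038049, chromosome 8 from 4284782 to 4325417), the ubiquitous member, had 6599, 5778 and 5571 normalized counts in the wild-type libraries and 7645, 5630 and 6052 in the dKO libraries. The highest value was in dKO 1 and the other dKO libraries lay inside the wild-type range. Its log2 fold change was 0.10 (SE 0.12, adjusted p = 0.763 by limma). The neuronal *Elavl2* (GSMG0028061, chromosome 4 from 91250709 to 91399984) had 2735, 2945 and 2918 normalized counts in wild-type and 3526, 2839 and 3279 in dKO. The wild-type libraries were close together, dKO 1 and dKO 3 lay above them and dKO 2 lay among them. On the log2 scale the fold change was 0.16 (SE 0.09, adjusted p = 0.526 by limma), with an interval from 0.969-fold to 1.29-fold.

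*Elavl3* (GSMG0040462, chromosome 9 from 22015005 to 22052024) had the most counts of the 10 genes. Its values were 8712, 8077 and 8538 normalized counts in wild-type and 9522, 7820 and 8786 in dKO, so that the dKO libraries held both the highest and the lowest value. The log2 fold change was 0.04 (SE 0.09, adjusted p = 0.875 by limma), and the interval ran from 0.900-fold to 1.18-fold. *Elavl4* (GSMG0028195, chromosome 4 from 110203737 to 110351914), which is known for its part in axon growth, had 1936, 1860 and 2011 normalized counts in wild-type and 2294, 1895 and 1959 in dKO. Only dKO 1 lay outside the wild-type range. Its log2 fold change came to 0.08 (SE 0.09, adjusted p = 0.765 by limma).

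In the CELF family, *Celf1* (GSMG0021375, chromosome 2 from 90940397 to 91019495), the broadly expressed founding member, had 1447, 1359 and 1134 normalized counts in wild-type and 1742, 1399 and 1675 in dKO. Of the dKO libraries, dKO 2 alone lay within the wild-type range. The log2 fold change was 0.29 (SE 0.12, 1.02-fold to 1.47-fold, unadjusted p = 0.032 and adjusted p = 0.396 by limma), and the exact permutation test gave p = 0.2 (two-sided, 3 against 3, where 0.1 is the smallest p possible). *Celf2* (GSMG0022366, chromosome 2 from 6539701 to 7396199), also broadly expressed and abundant in brain, had 5946, 5803 and 5088 normalized counts in wild-type and 6665, 5683 and 6150 in dKO. These ranges overlapped, and the log2 fold change was 0.14 (SE 0.09, adjusted p = 0.579 by limma).

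*Celf4* (GSMG0018785) is largely restricted to neurons, binds mRNAs of synaptic proteins and is a seizure gene in mice. It had 5131, 3886 and 4933 normalized counts in wild-type and 4077, 3273 and 3417 in dKO. The 3 dKO libraries and wild-type 2 made up the lower values, and the overlap was that of dKO 1 with wild-type 2. The log2 fold change was -0.37 (SE 0.12, 0.644-fold to 0.930-fold, unadjusted p = 0.011 and adjusted p = 0.345 by limma), the smallest adjusted p of the 10 members, and the exact permutation p was 0.2. *Celf5* (GSMG0004370, chromosome 10 from 81459228 to 81482709), another mainly neuronal gene, had 4208, 3996 and 3799 normalized counts in wild-type and 4355, 3975 and 4337 in dKO, with a log2 fold change of 0.08 (SE 0.08, adjusted p = 0.721 by limma). The spread within each genotype was of the size of the difference.

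The MBNL genes had the fewest counts. *Mbnl1* (GSMG0024356, chromosome 3 from 60472830 to 60629749) had 252, 270 and 231 normalized counts in wild-type and 253, 254 and 217 in dKO, with a log2 fold change of -0.06 (SE 0.15, adjusted p = 0.905 by limma). The genotypes lay on top of each other. *Mbnl2* (GSMG0011966, chromosome 14 from 120275669 to 120431691), the main muscleblind gene of adult brain, had 299.6, 280.3 and 293 normalized counts in wild-type and 252, 289.7 and 186 in dKO. The wild-type libraries varied by 3.36% (coefficient of variation) and the dKO libraries by 21.7%, the least and the most of the 10 genes, and dKO 3 was the lowest library. The log2 fold change was -0.29 (SE 0.17, 0.628-fold to 1.07-fold, adjusted p = 0.549 by limma). Without dKO 3 it was -0.10, and without dKO 2 it was -0.42.

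**Figure D2:**
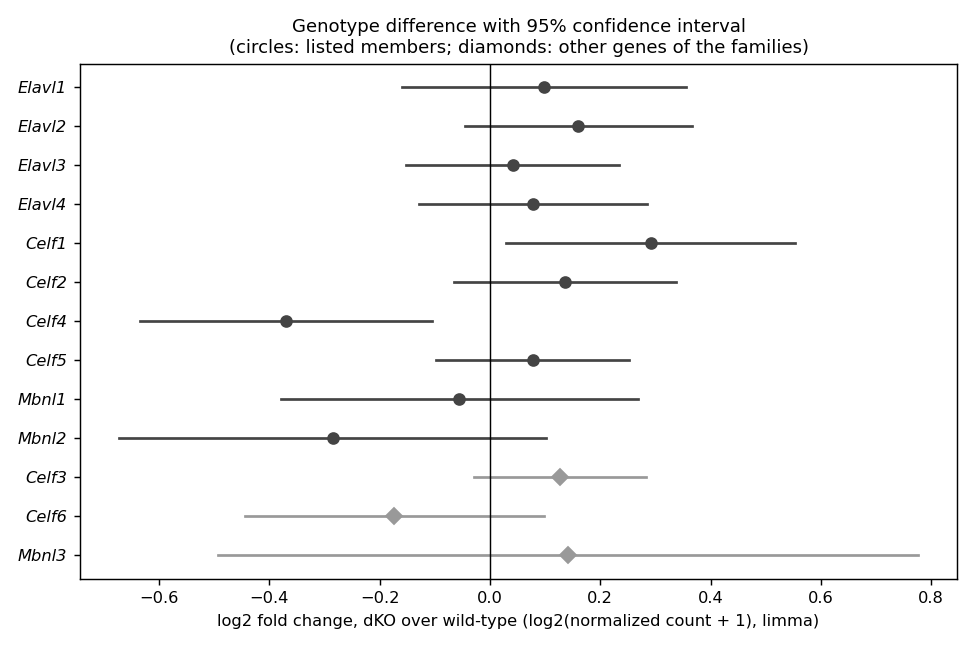
Log2 fold change, dKO over wild-type, with its 95% confidence interval from limma for the 10 members (circles) and the 3 other genes of the families (diamonds). The interval includes 0 for 8 of 10 members, and *Celf1* and *Celf4* lie on opposite sides of 0.

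Levels were compared between genes per kilobase of exon, using the union of annotated exons. The exons over which the reads were counted are not given in the sources used here, so the length may not match the counted one. In wild-type, *Elavl3* stood highest at 1225 ± 47.6 normalized counts per kb (SD, n = 3). *Celf5* (600 ± 30.7), *Elavl1* (577 ± 52.4) and *Celf4* (542 ± 77.9) followed, and the ranges of these 3 overlapped. *Elavl4* (359 ± 14.0) and *Elavl2* (345 ± 13.7) also overlapped, and they were followed by *Celf2* (217 ± 17.8) and *Celf1* (155 ± 19.1). *Mbnl2* (24.3 ± 0.814) and *Mbnl1* (13.4 ± 1.04) came last. *Elavl3* had 91.5 times the level of *Mbnl1* per kb of exon union, and 38.0 times per kb of the longest transcript. In dKO the means per kb were 1264 for *Elavl3*, 633 for *Celf5*, 622 for *Elavl1*, 418 for *Celf4*, 387 for *Elavl2*, 380 for *Elavl4*, 238 for *Celf2*, 190 for *Celf1*, 20.2 for *Mbnl2* and 12.9 for *Mbnl1*. *Elavl2* and *Elavl4*, whose ranges overlap in each genotype, were the neighbours that changed places. With the length of the longest annotated transcript in place of the exon union, *Elavl3* stayed first and *Mbnl1* last in wild-type, while *Celf4* (1164) came second and *Celf2* (634) moved above *Elavl4* (467).

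**Figure D3:**
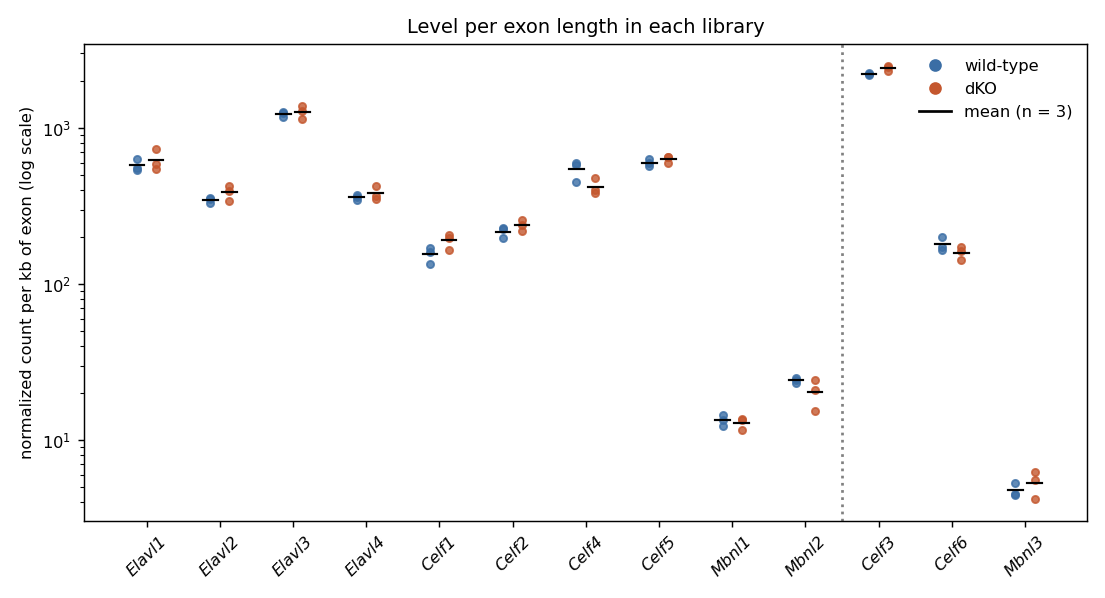
Normalized counts per kb of exon (log axis) in each library, with the mean of 3 libraries as a bar, for the 10 members and, right of the dotted line, *Celf3*, *Celf6* and *Mbnl3*. *Elavl3* is the highest of the members and the MBNL genes are the lowest in both genotypes.

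The genes of the families that are not among the members covered a wider range. *Celf3*, a neuronal CELF gene, had more counts per kb than any member, 2217 ± 24.0 in wild-type and 2421 ± 98.4 in dKO. It had 11983, 12233 and 12178 normalized counts in wild-type and 12653, 13395 and 13701 in dKO. Its genotypes did not overlap, which held for 16.4% of all features, and its log2 fold change was 0.13 (SE 0.07, adjusted p = 0.511 by limma). The normalized count of *Celf6* was 650 ± 68.2 in wild-type and 576 ± 56.9 in dKO (log2 fold change -0.17, adjusted p = 0.597 by limma), and *Mbnl3* had 41.7 ± 4.11 and 46.6 ± 9.11 (0.14, adjusted p = 0.868). None of these 3 passed the test.

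As a description of the make-up of each family, the level per kb of each member was taken as a share of the sum over the listed members. The *Celf4* share of the CELF sum was 36.7%, 31.5% and 39.0% in the wild-type libraries and 29.8%, 28.0% and 26.8% in the dKO libraries, so that every dKO library was below every wild-type library. The *Celf1* share was 10.5%, 11.2% and 9.10% in wild-type and 12.96%, 12.2% and 13.4% in dKO, and the *Celf2* share was 14.1%, 15.6% and 13.3% in wild-type and 16.2%, 16.1% and 16.0% in dKO. Both were higher in every dKO library. Shares add up to the whole, so these are not separate observations, and the share of *Celf5* overlapped (39.7% ± 1.75 and 42.9% ± 1.59). With *Celf3* and *Celf6* counted in the sum, *Celf3* alone made up 56.7% ± 1.72 in wild-type and 59.7% ± 2.67 in dKO, with overlap. The *Celf4* share of that sum still did not overlap (13.8% ± 1.77 in wild-type and 10.3% ± 1.17 in dKO). The *Celf6* share did not overlap either (4.59% ± 0.482 in wild-type and 3.91% ± 0.327 in dKO), whereas the shares of *Celf1* and *Celf2* did. For counts, the genotypes did not overlap for 16.4% of all features, and no such background was computed for shares. The sum over the listed members was 1514 ± 102 normalized counts per kb in wild-type and 1480 ± 115 in dKO. The shares depended on the length used. Per kb of the longest transcript, the wild-type shares were 40.4% for *Celf4*, 31.7% for *Celf5* and 22.1% for *Celf2*. *Celf4* rather than *Celf5* then stood first. Whether the genotypes overlapped was the same for each listed CELF gene.

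In the ELAVL family the shares of all 4 genes overlapped between the genotypes. *Elavl3* made up 48.9% ± 0.647 of the sum in wild-type and 47.7% ± 1.10 in dKO, and *Elavl1* made up 23.0% ± 1.55 and 23.4% ± 1.32. Per kb of the longest transcript, the *Elavl3* share was 43.4% in wild-type and 42.2% in dKO, also with overlap. The ELAVL sum was 2507 ± 80.2 normalized counts per kb in wild-type and 2653 ± 301 in dKO. *Mbnl2* made up 64.4% ± 2.34 of the MBNL sum in wild-type and 60.7% ± 3.42 in dKO, again with overlap, and that sum was 37.7 ± 0.863 and 33.1 ± 5.48. Per kb of the longest transcript, the *Mbnl2* share was 54.2% in wild-type and 50.2% in dKO. Per kb of exon union with *Mbnl3* counted in the sum, it was 57.2% and 52.2%. Both overlapped between the genotypes.

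**Figure D4:**
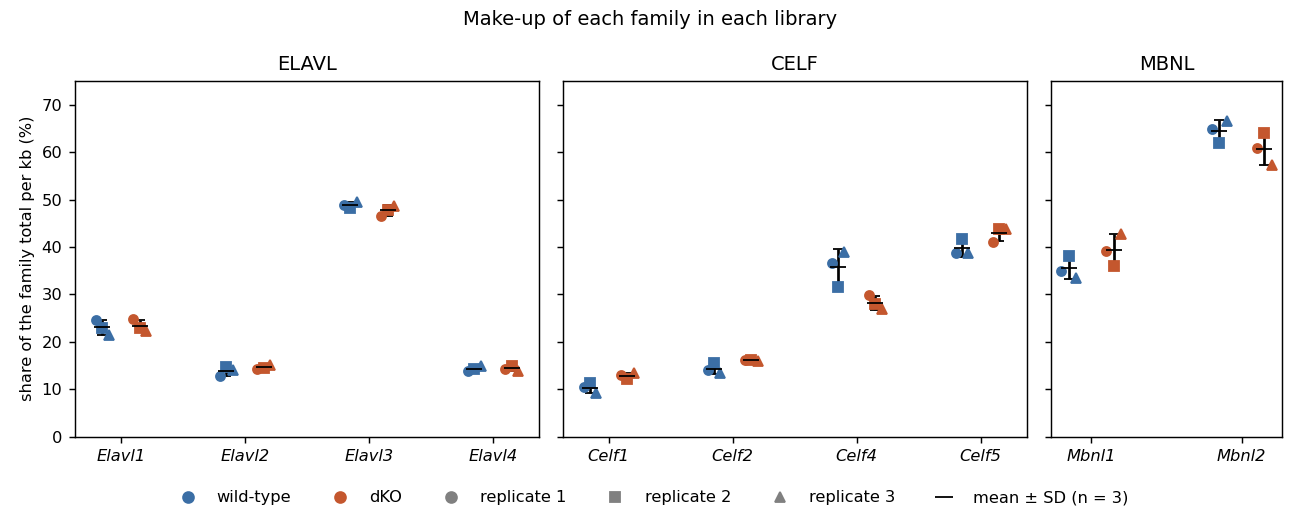
Share (%) of each member in the summed level per kb of the listed members of its family, in each library, with mean and SD of 3 libraries. *Celf3*, *Celf6* and *Mbnl3* are not in the sums. In the CELF panel the *Celf4* points of dKO lie between 26.8% and 29.8%, below all wild-type points, and the ELAVL and MBNL shares overlap.

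Textbook targets of the families were read as lists of genes at the whole-gene level. This carries no information on which exons were used. Of 13 genes whose mRNAs ELAVL proteins are known to bind, 0 passed the test in either direction. At an unadjusted p under 0.05, 1 was higher and 3 were lower, where 4.92% and 6.58% of all features were. The median log2 fold change was -0.14, beside 0.0036 over all features. *Ache*, acetylcholinesterase, lay at 614 ± 94.1 normalized counts (wild-type) and 452 ± 58.4 (dKO) (log2 fold change -0.44, adjusted p = 0.346 by limma). Its genotypes did not overlap, which held for 16.4% of all features. The cell adhesion gene *Cntn1* had 3207 ± 764 and 2471 ± 111 (-0.35, adjusted p = 0.399), the cell cycle inhibitor *Cdkn1a* 728 ± 236 and 511 ± 30.8 (-0.46, adjusted p = 0.402) and the transcription factor *Mycn* 7136 ± 933 and 8702 ± 1374 (0.28, adjusted p = 0.435 by limma). The genotypes of *Cntn1*, *Cdkn1a* and *Mycn* overlapped. Wild-type 1 was the highest library for *Cntn1* (4047) and wild-type 3 for *Cdkn1a* (994). The axonal growth gene *Gap43*, a classical HuD target, had 20362 ± 2143 and 18153 ± 872 (-0.16, adjusted p = 0.506 by limma).

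Of 18 genes known to be spliced under MBNL or CELF control, 0 passed the test. The median log2 fold change was -0.04, beside 0.0036 over all features. At an unadjusted p under 0.05, 1 of the 18 was lower, where 6.58% of all features were. That gene, *Grin1*, encodes the obligatory subunit of NMDA receptors and lay at 1332 ± 232 normalized counts (wild-type) and 1059 ± 69.8 (dKO) (log2 fold change -0.32, adjusted p = 0.394 by limma). *Mapt*, which encodes tau, stands on both lists and had 42452 ± 4720 and 41246 ± 4477 (-0.04, adjusted p = 0.896 by limma). The next smallest unadjusted p-values belonged to the myosin phosphatase subunit *Ppp1r12a* (log2 fold change 0.21, adjusted p = 0.475), *Ndrg4* (-0.18, adjusted p = 0.517) and *Numa1*, a spindle protein (0.20, adjusted p = 0.537 by limma).

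Cell type markers were measured beside the members, since in bulk tissue fewer cells of a type and less RNA per cell cannot be told apart. In none of 9 marker lists did a gene pass the test. The summed markers of neurons in general lay between 251020 and 271537 normalized counts in wild-type and between 277549 and 289234 in dKO, without overlap. Their median log2 fold change was -0.02, however, and 5 of the 8 genes had a negative one. At an unadjusted p under 0.05, 3 of the 8 were higher and 1 was lower, where 4.92% and 6.58% of all features were. The sum was led by *Tubb3*, a neuronal tubulin (143317 ± 5882 and 162427 ± 3953, log2 fold change 0.18, adjusted p = 0.385 by limma). The others higher at that threshold were *Map2* (0.20, adjusted p = 0.421 by limma) and *Dcx* (0.19, adjusted p = 0.432 by limma). The synaptic vesicle gene *Syt1* was the lower one, with 3864 ± 487 and 3280 ± 189 (-0.23, adjusted p = 0.412 by limma). The 5 markers of proliferating cells summed to between 3260 and 3585 in wild-type and between 3963 and 4614 in dKO, also without overlap. Their median log2 fold change was 0.30. Taken singly, *Cdk1* (0.40, adjusted p = 0.402 by limma) and *Top2a* (0.25, adjusted p = 0.488 by limma) did not overlap, and the others did. Single features did not overlap for 16.4% of all features, and no such background was computed for sums. The cortical glutamatergic list had a median of 0.25, and its *Emx1*, a transcription factor of cortical progenitors, had 1193 ± 117 and 1727 ± 18.0 (0.54, adjusted p = 0.0900 by limma). *Slc17a7*, the vesicular glutamate transporter of the same list, had 2668 ± 620 and 2174 ± 420 (-0.28, adjusted p = 0.579 by limma). The endothelial list had a median of -0.23. At an unadjusted p under 0.05, 2 of its 5 genes were lower, *Flt1* (-0.76) and *Kdr* (-0.66), where 6.58% of all features were. In the other direction, 3 of 7 glutamatergic, 2 of 8 radial glia and 1 of 5 proliferation markers were higher, where 4.92% of all features were. The interneuron, microglia, erythroid and choroid plexus lists had 0 such genes in either direction. Of the 6 erythroid genes, however, 4 were measured and 3 were tested, and of the 5 choroid plexus genes 1 was tested. The summed markers of cortical glutamatergic neurons, radial glia, interneurons, endothelial cells, microglia and erythroid cells overlapped between the genotypes. The 5 choroid plexus markers summed to between 15.04 and 84.2 in wild-type and between 18.2 and 39.7 in dKO, and only *Clic6* of them passed the filter on low values. The part of these lists in the values of *Celf1*, *Celf4* and the other members was not tested.

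The table also lists 56 features without a symbol that lie inside the members' spans. Of these, 8 passed the filter, and 18 were listed at 0 in every library. Of the 8, 0 passed the test and 1 had an unadjusted p under 0.05, where 11.5% of all features had one. The highest was GSMG0039233 in *Elavl3* (chromosome 9 from 22018408 to 22019109), which spans the coding stretch shown for that gene. Its mean was 139 ± 25.1 normalized counts (wild-type) and 129 ± 17.2 (dKO) (log2 fold change -0.10, adjusted p = 0.871 by limma). The next was GSMG0065451 in *Celf5* (127 ± 20.9 and 95.2 ± 18.3, log2 fold change -0.42, adjusted p = 0.499 by limma). GSMG0018786 in *Celf4* had 37.0 ± 11.8 and 17.3 ± 11.9 (-1.23, adjusted p = 0.403 by limma), with overlap. Summed over a gene, these features came to 19.7% of the member's own counts for *Mbnl2* and to at most 2.703% for the others. How reads inside a gene were assigned to such features is not given in the sources used here.

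**Figure D5:**
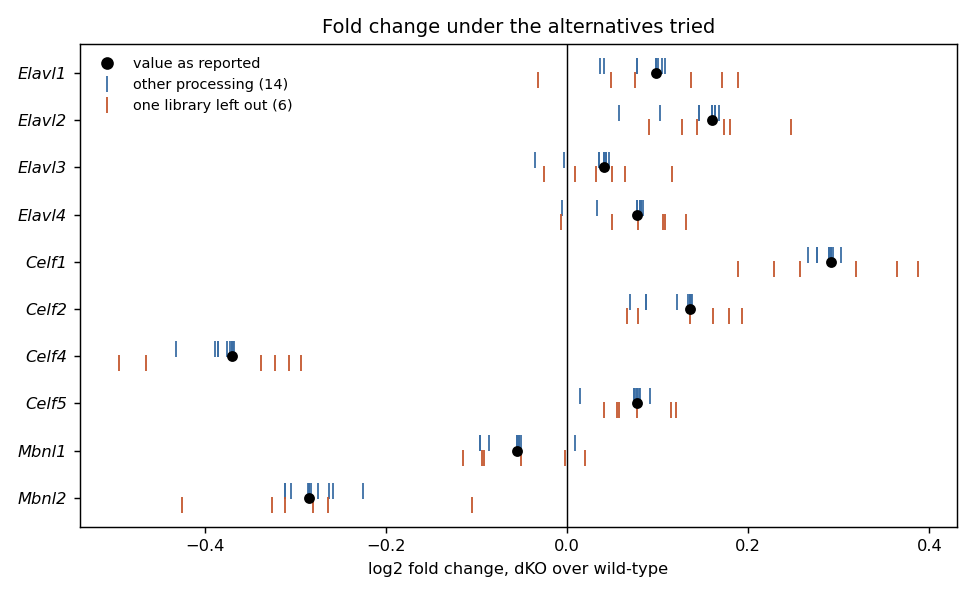
Log2 fold change (dKO over wild-type) of each member as reported (circle), under 14 other ways of processing (blue ticks) and with 1 library left out in turn (6 orange ticks). *Celf1*, *Celf2*, *Celf5* and *Elavl2* stay above 0 and *Celf4* and *Mbnl2* below 0 throughout, and the other 4 genes cross 0.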

How the data were processed

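PolyA+ RNA of E18.5 cortex was sequenced as 150 bp paired-end reads from stranded libraries, 3 per genotype, grouped by the labelled genotype. The reads were assigned by GenoSplice to FAST database genes, and the authors deposited a normalized signal per gene, the reads scaled by a library size factor. The submitters' processing notes name mm10, STAR 2.7.5a, FastQC, Picard, SAMtools and DESeq2. The strand setting is not given in the sources used here. Whole reads were recovered from the signal: 100% of positive values were multiples of what 1 read is worth (0.877 to 1.16) within 0.02 reads.

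Genotypes were compared by limma 3.58.1 in R 4.3.3, with trend and robust options, after adding a pseudocount of 1 and taking log2, which understates the fold changes of low features. Features needed a mean of 10, and p-values were adjusted by Benjamini-Hochberg over all 18970 (threshold 0.05). The fit was tried on simulated counts that had the same spread setting for every feature and no length trend. That trial cannot show how the fit behaves on these libraries. Lengths and sequences came from GENCODE release M21, whose genes overlap the positions of all 10 members of the same name. Alternatives were edgeR 4.0.16 and DESeq2 1.42.0 on the recovered reads, pseudocounts of 0.1 and 10, other filters and scalings, removal of each library's length trend, the replicate number as a block, and each library left out. Features with a symbol only, and shares with unlisted paralogs, were added after the data were seen.

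The members and lists were chosen with earlier results of these data known. Named are all members, the paralogs *Celf3*, *Celf6* and *Mbnl3*, the *Khdrbs* genes as a label check, up to 4 genes with the smallest unadjusted p of each list, and the 2 highest features inside members. *Gap43*, *Mapt*, *Slc17a7* and GSMG0018786 were named after their values were seen. Splicing was not analysed here. Python 3.11.15 with pandas 2.3.3, numpy 2.4.6, scipy 1.17.1 and matplotlib 3.10.9 was used for the rest.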

Additional observations from a re-analysis of the deposited data

How the results depend on the processing

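No member was called under any of the 20 alternatives, and the smallest adjusted p of any member under them was 0.119 (limma, *Celf4* without wild-type replicate 2). Over all features the number called was 19 as reported, 19 with edgeR, 207 with DESeq2, 7 without the trend and robust options, 9 with the replicate block, 9 with the length trend removed, 5 with both, 5 without both libraries numbered 1, 6 among features with a symbol, and 7 to 46 with 1 library left out. The number of members with an unadjusted p under 0.05 was 2 as reported (11.5% of all features), 0 without the trend and robust options (9.88%), and 1 to 4 with 1 library left out: 1 without wild-type replicate 3 (7.35%), dKO replicate 1 (11.9%) or dKO replicate 3 (6.43%), and 4 without dKO replicate 2 (12.2%). The genotypes did not overlap for 0 members as reported, for 1 (*Celf4*) after quantile normalization (14.8% of all features) and for 2 (*Celf1* and *Celf4*) with the length trend removed (17.7% of the features with a length).

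The log2 fold change changed sign for 4 members, all close to 0. With 1 library left out it ran from -0.032 to 0.19 for *Elavl1*, from -0.026 to 0.12 for *Elavl3*, from -0.0062 to 0.13 for *Elavl4* and from -0.11 to 0.020 for *Mbnl1*, with the negative ELAVL values without dKO replicate 1 and the positive *Mbnl1* value without dKO replicate 3. After quantile normalization it was -0.035 for *Elavl3* and 0.0091 for *Mbnl1*, and without both libraries numbered 1 it was -0.0027 for *Elavl3* and -0.0057 for *Elavl4*. The cause was not tested. Over all alternatives *Celf4* ran from -0.49 to -0.29, *Celf1* from 0.19 to 0.39, *Mbnl2* from -0.42 to -0.10, *Elavl2* from 0.06 to 0.25, *Celf2* from 0.07 to 0.19 and *Celf5* from 0.01 to 0.12. The deviations of same-numbered samples from their group means correlated at 0.098, -0.228 and -0.079 for numbers 1, 2 and 3, so the numbers were not taken to pair the samples, although the libraries numbered 1 share a trend with gene length. With the replicate block, 0 members were called and *Celf4* had an adjusted p of 0.211 by limma, or 0.243 with the length trend also removed.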
